A study of Mus musculus with 6 samples.

Results

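Of 4 target genes of Wnt signalling, Axin2, Ascl2, Rnf43 and Notum, accessible chromatin around the first 3 is described in AKP organoids, a mouse model of colon cancer, as naive cultures and as lines derived from primary tumours. The members were all peaks of the deposited count table whose mm9 coordinates overlapped a fixed window around each gene, with no use of the read counts. The windows ran from 108.74 to 108.85 Mb on chromosome 11 for Axin2, from 150.1 to 150.2 Mb on chromosome 7 for Ascl2 and from 87.45 to 87.56 Mb on chromosome 11 for Rnf43. They held 13, 13 and 9 peaks, 35 of 43020 in the table. Notum, whose window lies on chromosome 11, is not analysed here. All 35 peaks passed the filter on low counts and were tested.

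Each library was made by ATAC-seq, in which the Tn5 transposase cuts and tags open chromatin, so that reads over a region rise with its accessibility. Naive AKP organoids, which had not been in a mouse, gave 3 libraries. The primary tumour group held 3 libraries of AKP organoid lines, each grown from a tumour that formed after orthotopic transfer of naive organoids into an immunocompetent C57Bl6 mouse by colonoscopy, and passaged until no cells but cancer cells remained. Both groups carry the genotype that the labels give as AKP. Growth in the mouse, outgrowth and passage are shared by all tumour-derived lines and cannot be told apart here, and the labels do not say whether a line is a single clone or whether the naive libraries came from separate cultures, so p-values measure the spread between these libraries. The markers of the labelled cell type could not be checked, since the table carries no gene names.

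The canonical Wnt pathway works through beta-catenin, which a cytoplasmic destruction complex built on Apc and Axin proteins marks for breakdown. When Wnt ligands bind their receptors, or when Apc is lost, beta-catenin enters the nucleus and acts with TCF/LEF factors on target genes. In the intestine the pathway maintains the crypt stem cells. Axin2 encodes a scaffold of the destruction complex and Rnf43 a membrane ubiquitin ligase that removes Frizzled receptors, so both are targets that dampen the pathway. Notum encodes a secreted enzyme that inactivates Wnt ligands. Ascl2 encodes a basic helix-loop-helix transcription factor of intestinal stem cells.

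The start-site sequences of the genes are shown because they differ in base composition and because the windows were drawn around these genes. Each is the 250 bases before a RefSeq start site in GRCm38.p6, written 5′ to 3′ on the strand of the gene. The peak coordinates are in mm9, so no peak was placed on these sequences, and none was assigned to a promoter, exon, intron or UTR. Of the 4 genes, 3 matched the RefSeq promoter table.
Axin2 (GRCm38.p6 chr11:108920099-108920348, plus strand): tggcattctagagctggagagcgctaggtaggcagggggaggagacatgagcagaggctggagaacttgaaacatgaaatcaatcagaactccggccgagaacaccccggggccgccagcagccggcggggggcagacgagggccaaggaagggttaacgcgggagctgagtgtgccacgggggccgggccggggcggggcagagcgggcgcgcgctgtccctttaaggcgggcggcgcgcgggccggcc
Ascl2 (GRCm38.p6 chr7:142969265-142969514, minus strand): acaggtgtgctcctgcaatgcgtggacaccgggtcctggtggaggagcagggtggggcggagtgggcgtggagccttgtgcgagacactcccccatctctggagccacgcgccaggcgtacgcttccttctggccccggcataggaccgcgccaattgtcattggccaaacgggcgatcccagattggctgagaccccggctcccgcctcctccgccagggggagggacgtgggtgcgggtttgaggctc
Rnf43 (GRCm38.p6 chr11:87662837-87663086, plus strand, the first of its listed start sites): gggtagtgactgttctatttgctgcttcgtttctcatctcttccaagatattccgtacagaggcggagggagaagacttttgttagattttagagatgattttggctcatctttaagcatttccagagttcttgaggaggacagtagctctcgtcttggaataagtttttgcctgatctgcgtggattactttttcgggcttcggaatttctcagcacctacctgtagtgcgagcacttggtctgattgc

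Of these bases, 69.2% were G or C for Axin2, 67.6% for Ascl2 and 44.4% for Rnf43, against a median of 52.4% over 32851 start sites of the same table. CpG pairs numbered 24, 19 and 8, against a median of 6. The TCF/LEF motif, searched on both strands as the words CTTTGAA or else CTTTGAT, or with a T after the G as CTTTGTA or else CTTTGTT, was found in none of these sequences, and in 14.8% of all start sites, so no base is in capitals. The absence says only that these letters are not in these bases. In the gene order of RefSeq (GRCm38.p6), the protein-coding neighbours of Axin2 are Cep112 and Rgs9, those of Ascl2 are Th and Tspan32, and those of Rnf43 are Hsf5 and Supt4a. Ascl2 is 2443 bp long in a window of 100 kb, Axin2 is 32956 bp and Rnf43 72453 bp long in windows of 110 kb, so many peaks of the Ascl2 window lie outside the gene.

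The total count in peaks was 1185356 to 5987545 in the naive libraries and 1916819 to 3594735 in the primary tumour lines, with naive replicate 1 the shallowest and naive replicate 2 the deepest. The 35 peaks together held 1947 to 9841 reads per library. Values below are CPM, counts scaled to a fixed library size, each count taken relative to the library's total over the tested peaks after TMM scaling. On chromosome 11 the median over all tested peaks of the log2 ratio to the naive mean was 0.03 to 0.08 in the primary tumour lines, and on chromosome 7 also 0.03 to 0.09, against -0.01 to 0.03 in the naive libraries on both.

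At these loci a single peak in each window was called different between the groups, and 32 of 35 peaks were not called. A peak without a call is not thereby unchanged, and some calls depended on the setting, as given below. Of the 35, 2 were more accessible in the primary tumour lines and 1 was less accessible, at an adjusted p under 0.05 in edgeR's quasi-likelihood test. That is 8.57% of the peaks, where 14.4% of all 36179 tested peaks were called, 8.0% higher and 6.4% lower, with 12.2% called on chromosome 11 and 12.7% on chromosome 7. The share at the Wnt target loci is therefore not above the background. The less accessible peak lay in the Axin2 window, and the more accessible peaks in the Ascl2 and Rnf43 windows. The median log2 fold change, primary tumour lines against naive organoids, was 0.09 over the 35 peaks and -0.01 over all tested peaks. Among the 35, 23 had an absolute log2 fold change under 0.5, 20 were positive and 15 negative. All 3 primary tumour lines lay above all 3 naive libraries at 6 peaks and below them at 1, where 15.5% and 15.3% of all tested peaks were separated in these ways.

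**Figure D1:**
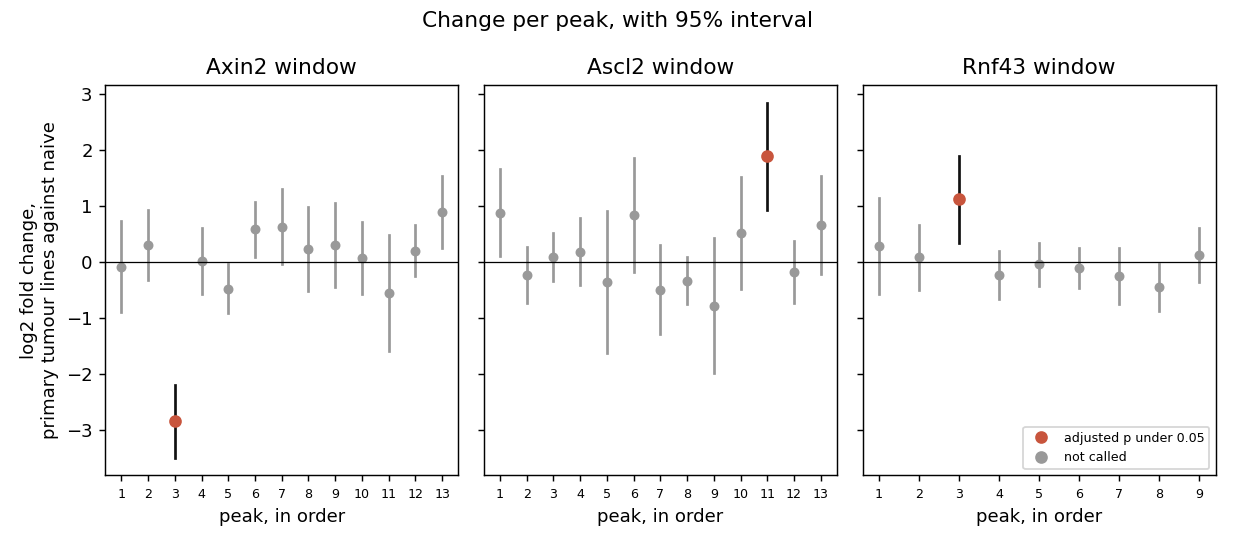
Log2 fold change (vertical axis) of each peak in the Axin2, Ascl2 and Rnf43 windows, primary tumour lines against naive organoids, with peaks in order along the chromosome (horizontal axis) and bars for the 95% interval of the edgeR estimate. The third Axin2 peak lies at -2.84, the eleventh Ascl2 peak at 1.89 and the third Rnf43 peak at 1.12, and no other peak was called.

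Summed over each window, accessibility differed by less than the spread between libraries. The Axin2 window summed to 434, 499.9 and 368 CPM in naive replicates 1, 2 and 3 and to 424, 401 and 454 CPM in primary tumour replicates 1, 2 and 3. The tumour-derived values all fell within the naive range. Group means were 434 ± 66.1 CPM in naive organoids and 426 ± 26.5 CPM in primary tumour lines (SD, n = 3 each), a log2 ratio of -0.03 (exact 2-sided permutation test, p = 0.9). At 3 against 3 the smallest p this test can give is 0.1.

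The Ascl2 window summed to 397, 401 and 328 CPM in the naive libraries and to 377, 379 and 394 CPM in the primary tumour lines. Again every tumour-derived value lay inside the naive range, with means of 375 ± 41.3 and 383 ± 9.03 CPM (SD, n = 3 each; log2 ratio 0.03, exact permutation p = 1). The Rnf43 window summed to 839, 907 and 725 CPM in naive organoids and to 787, 767 and 709 CPM in primary tumour lines. The groups overlapped here too, with means of 824 ± 92.1 and 754 ± 40.5 CPM (SD, n = 3 each). The log2 ratio was -0.13 (exact permutation p = 0.3). With abundance-trended offsets the ratio was 0.063, and no permutation test was run on it. Naive replicate 3 was the lowest naive library in all 3 windows.

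**Figure D2:**
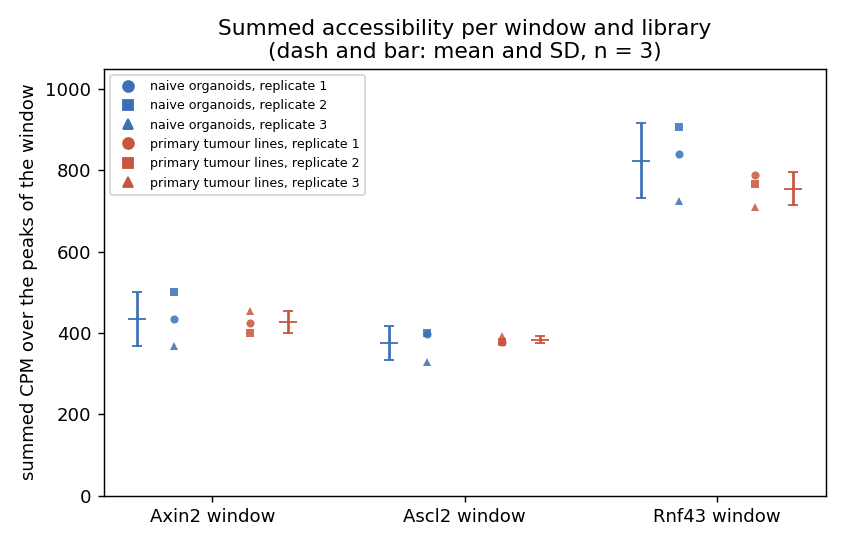
Summed CPM over the peaks of each window (vertical axis, from 0) for the Axin2, Ascl2 and Rnf43 windows, with a point per library and, beside the points, the mean and SD of each group (n = 3). The naive and primary tumour points overlap in every window, with means of 434 and 426, 375 and 383, and 824 and 754 CPM.

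Within the Axin2 window, the peak from 108767845 to 108768583 lost most of its accessibility in the lines grown from tumours. It had 52.3, 69.8 and 43.6 CPM in naive replicates 1, 2 and 3 and 7.42, 5.82 and 9.96 CPM in primary tumour replicates 1, 2 and 3. All 3 tumour-derived values lay far below the lowest naive value. Fewer cells with this site open and a less open site in every cell cannot be told apart in such libraries. The reads behind them were 61, 380 and 102 in naive organoids and 26, 11 and 21 in primary tumour lines. The group means were 55.2 ± 13.4 and 7.73 ± 2.09 CPM (SD, n = 3 each). By the model's estimate the level was 7.16-fold lower in the tumour-derived lines (log2 fold change -2.84, SE 0.32, adjusted p = 1.71e-06, edgeR's quasi-likelihood test with Benjamini-Hochberg adjustment). Of the 2317 peaks called lower across the genome, 65 had a lower log2 fold change, and their median was -1.25. On chromosome 11 this peak had the second lowest log2 fold change of 2496 tested peaks. It kept its call under every alternative of scaling, filter, test and library choice that was run, with log2 fold changes from -3.03 to -2.61.

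The neighbouring peaks were not called. The peak before it, 7682 bp away and starting at 108759052, had 31.7, 27.9 and 29.5 CPM in naive organoids and 57.3, 25.4 and 24.7 CPM in primary tumour lines. Its groups overlapped, with primary tumour replicate 1 high (log2 fold change 0.31, 95% interval -0.33 to 0.94). The peak after it, 2448 bp away and starting at 108771031, had 24.0, 39.1 and 29.5 CPM against 42.5, 25.9 and 26.6 CPM, with a log2 fold change of 0.02 and an interval of -0.57 to 0.61. Both intervals lie above the -2.19 that closes the interval of the lost peak.

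The share of a window's reads that falls in a peak does not depend on the scaling between libraries. The lost peak held 12.1%, 14.0% and 11.8% of the Axin2 window's reads in naive replicates 1, 2 and 3 and 1.75%, 1.45% and 2.19% in the primary tumour lines. The means were 12.6% ± 1.17 and 1.80% ± 0.374 (SD, n = 3 each; exact 2-sided permutation p = 0.1, the smallest possible). Because the peak was picked for its change in these same reads, that p-value adds no separate support. Over the same window, the sixth, seventh, twelfth and thirteenth peaks had a higher share in every primary tumour line than in any naive library. Such peaks were also found in the Ascl2 window, starting at 150188647 and 150190667, and in the Rnf43 window, starting at 87491997. A lower share in every primary tumour line was also seen at the sparse Ascl2 peak starting at 150171961. It held 3.02%, 1.65% and 1.69% in naive organoids and 1.44%, 0.419% and 1.57% in primary tumour lines, and its groups overlapped in CPM. By CPM, a different measure, 15.5% of all tested peaks were separated upwards and 15.3% downwards. Separation by share was not counted over all tested peaks. Shares sum to the whole, so a lower share at one peak raises the sum of the others. In CPM, the sixth, seventh and thirteenth peaks were also separated upwards, and the twelfth overlapped (log2 fold change 0.21). What raised these shares was not tested.

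**Figure D3:**
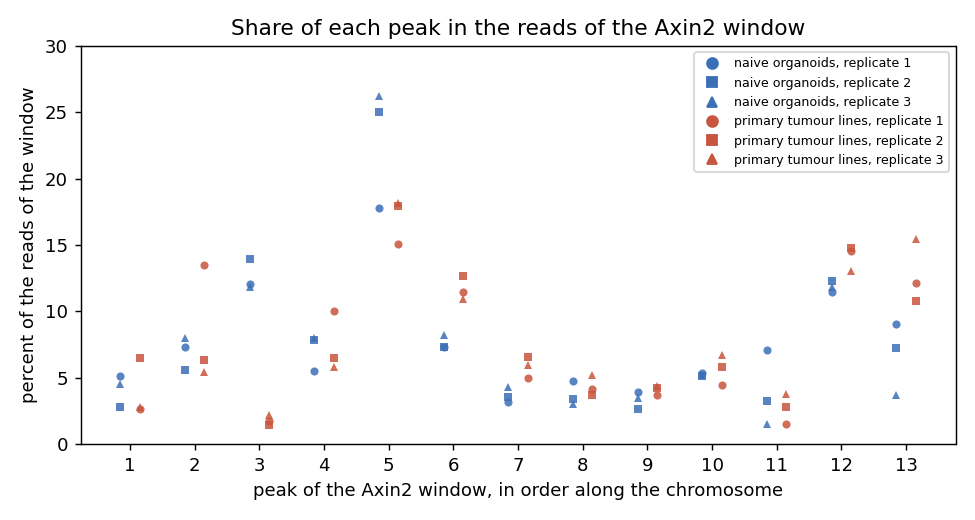
Percent of the reads of the Axin2 window that fell in each of its 13 peaks (vertical axis), in order along the chromosome (horizontal axis), with a point per library. The third peak holds 11.8% to 14.0% in naive organoids and 1.45% to 2.19% in primary tumour lines, and the fifth peak holds the highest share of the 13 in every library, from 15.1% to 26.2%.

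The strongest Axin2 peak was the fifth, from 108781379 to 108782671. It had 77.2, 125 and 96.5 CPM in naive organoids and 63.9, 71.97 and 82.5 CPM in primary tumour lines. Primary tumour replicate 3 lay above naive replicate 1, so the groups overlapped, and the peak was not called (log2 fold change -0.48, SE 0.21, 95% interval -0.91 to -0.04, adjusted p = 0.141, edgeR). The highest fold change of the window was at its last peak, from 108845881 to 108846530, with 39.5, 36.2 and 13.7 CPM in naive organoids and 51.6, 43.4 and 70.2 CPM in primary tumour lines. The groups were separated, but naive replicate 3 stood well below the other naive libraries and the adjusted p was 0.0535 (log2 fold change 0.90, SE 0.31, edgeR). That peak passed the threshold under 6 of 14 alternatives, with adjusted p-values from 0.032 to 0.264.

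A further pair of Axin2 peaks was separated between the groups without a call. The sixth peak, from 108785672 to 108787332, had 31.7, 36.6 and 30.3 CPM against 48.8, 50.8 and 49.8 CPM in the lines from tumours (log2 fold change 0.59, adjusted p = 0.104, edgeR). The lines lay within 2.03 CPM of each other at this peak. The seventh, from 108795103 to 108795567, had 13.7, 17.6 and 15.8 CPM against 21.1, 26.5 and 27.0 CPM (log2 fold change 0.63, adjusted p = 0.214). With abundance-trended offsets the sixth peak was called, with a log2 fold change of 0.69 (adjusted p = 0.0382). The remaining 6 peaks of the Axin2 window ranged from -0.55 to 0.30 in log2 fold change, with overlapping groups.

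In the Ascl2 window a weak peak was more accessible in the lines from tumours, and the strong peaks were not called. The peak that was called, from 150190667 to 150191399, had 12.0, 2.76 and 7.69 CPM in naive replicates 1, 2 and 3 and 16.8, 31.2 and 26.1 CPM in primary tumour replicates 1, 2 and 3. The groups did not overlap, though naive replicate 1 and primary tumour replicate 1 came within 4.82 CPM of each other. The reads were 14, 15 and 18 in naive organoids and 59, 59 and 55 in primary tumour lines. The means were 7.48 ± 4.63 and 24.7 ± 7.30 CPM (SD, n = 3 each). The model's estimate, which is not the ratio of these means, was a 3.70-fold higher level (log2 fold change 1.89, SE 0.47, adjusted p = 0.00732, edgeR). Without naive replicate 2, the deepest library and the lowest at this peak, the log2 fold change was 1.35 and the call was lost (adjusted p = 0.084).

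Peaks on either side of it were not called. The peak 1469 bp before, starting at 150188647, had 8.58, 5.33 and 6.83 CPM in naive organoids and 8.84, 9.53 and 10.4 CPM in primary tumour lines, and its groups were separated by 0.26 CPM (log2 fold change 0.52, adjusted p = 0.546, edgeR). The peak 2468 bp after, starting at 150193867, had 29.2, 44.1 and 30.3 CPM against 31.1, 29.1 and 32.7 CPM (log2 fold change -0.18, adjusted p = 0.727).

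The strongest Ascl2 peak, from 150153171 to 150155460, was also the widest of the window at 2289 bp. It had 92.7, 123 and 94.8 CPM in naive organoids and 95.8, 70.4 and 80.6 CPM in primary tumour lines. Primary tumour replicate 1 lay inside the naive range and the other lines below it (log2 fold change -0.33, SE 0.20, 95% interval -0.75 to 0.08, adjusted p = 0.307, edgeR). The lowest fold change was at a sparse peak from 150171961 to 150172626, with 12.0, 6.61 and 5.55 CPM against 5.42, 1.59 and 6.17 CPM. Primary tumour replicate 2 had 3 reads there, and the interval of the log2 fold change ran from -1.98 to 0.43 around -0.77 (adjusted p = 0.432, edgeR). The first Ascl2 peak, starting at 150104551, had 17.2, 9.37 and 14.9 CPM against 16.0, 23.8 and 34.6 CPM (log2 fold change 0.88, adjusted p = 0.12), and was called without primary tumour replicate 1 (log2 fold change 1.16, adjusted p = 0.0281). The other 7 peaks of the window had log2 fold changes from -0.49 to 0.84 with overlapping groups.

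The Rnf43 window held the strongest peaks of these loci. Its sixth peak, from 87510315 to 87511222, had 237 CPM per kb of peak over the 6 libraries, which placed it at rank 18 of the 36179 tested peaks on this scale per length. By library it had 232, 245 and 191 CPM in naive organoids and 208, 219 and 195 CPM in primary tumour lines. All tumour-derived values lay inside the naive range (log2 fold change -0.10, SE 0.17, 95% interval -0.46 to 0.25, adjusted p = 0.768, edgeR, and 0.15 with abundance-trended offsets). The authors' score of this peak, 690, was also the highest of the 35. Its share of the window's reads was 27.6%, 27.0% and 26.4% in naive organoids and 26.4%, 28.5% and 27.6% in primary tumour lines.

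The eighth Rnf43 peak, from 87522936 to 87524071, ranked next among the 35, with 137 CPM per kb. It had 201, 207 and 131 CPM in naive organoids and 115, 161 and 119 CPM in primary tumour lines. Naive replicate 3 lay among the tumour-derived values, and the peak, the lowest in fold change of its window, was not called (log2 fold change -0.45, SE 0.20, 95% interval -0.87 to -0.04, adjusted p = 0.143, edgeR). By comparison the strongest Axin2 peak per length had 66.7 CPM per kb and the strongest Ascl2 peak per length 48.9 CPM per kb.

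One Rnf43 peak was called higher in the lines from tumours, from 87491997 to 87492765. It had 11.2, 12.1 and 14.9 CPM in naive replicates 1, 2 and 3 and 18.0, 46.0 and 20.9 CPM in primary tumour replicates 1, 2 and 3. The groups did not overlap, but primary tumour replicate 2 stood far above the other lines. The means were 12.7 ± 1.97 and 28.3 ± 15.4 CPM (SD, n = 3 each). For this peak the model's estimate, which is not the ratio of these means, was a 2.17-fold higher level (log2 fold change 1.12, SE 0.37, adjusted p = 0.0451, edgeR). With primary tumour replicate 2 left out, its log2 fold change was 0.59 (adjusted p = 0.431), and the call held under 6 of 14 alternatives. The next peak, 1464 bp away and starting at 87494229, had its lowest value in that same library, 76.7 CPM against 104 and 131 CPM in the other lines and 126, 139 and 100.4 CPM in naive organoids (log2 fold change -0.23, adjusted p = 0.534). The other 5 peaks of the Rnf43 window had log2 fold changes from -0.25 to 0.29 with overlapping groups.

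**Figure D4:**
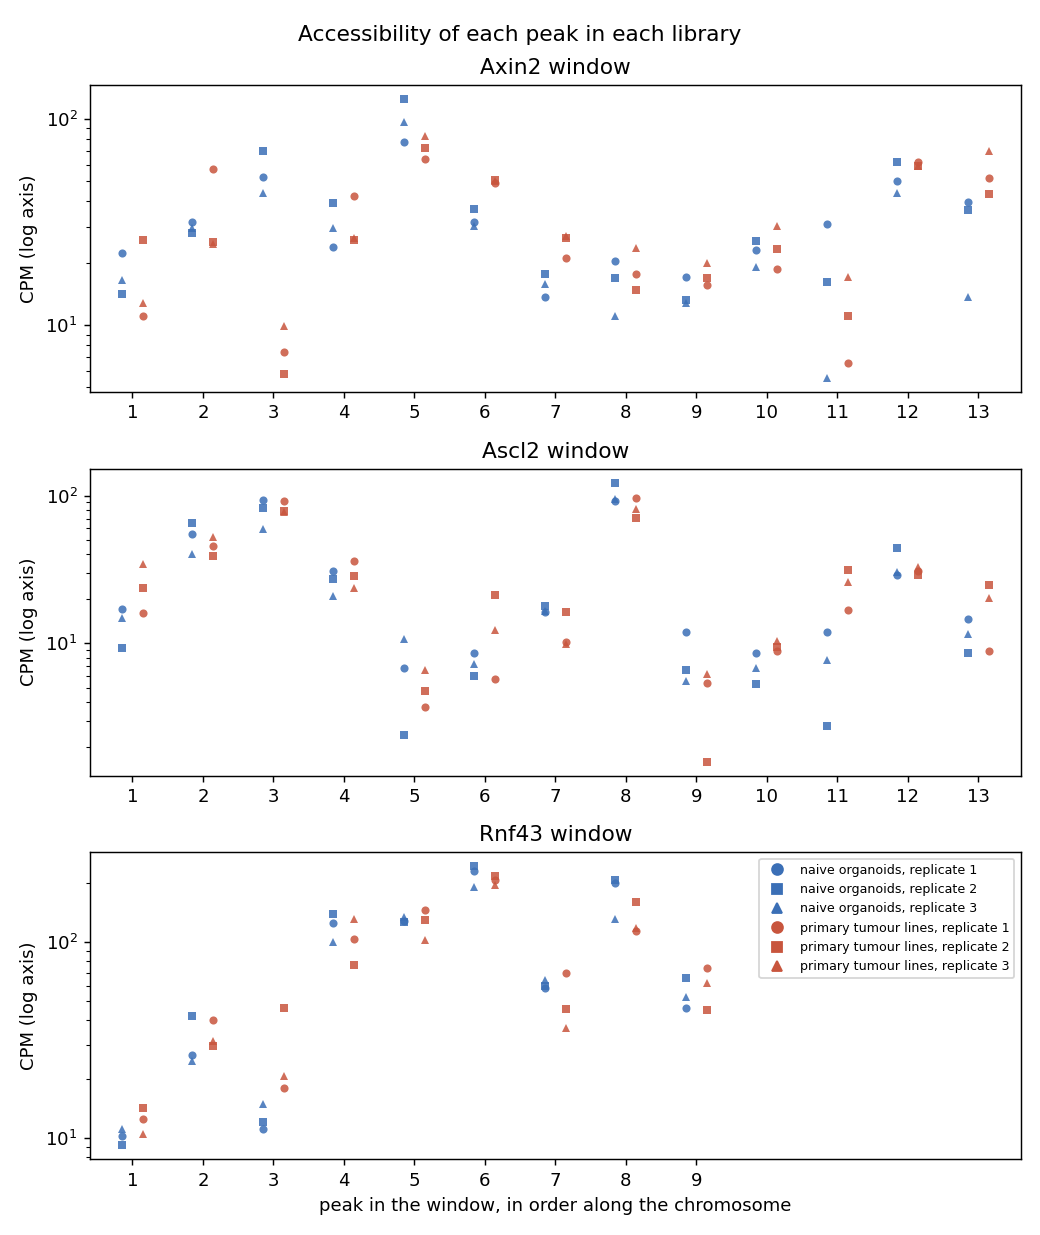
CPM (vertical log axis) of each of the 35 peaks in each of the 6 libraries, in order along the chromosome (horizontal axis), in a panel each for the Axin2, Ascl2 and Rnf43 windows. The third Axin2 peak lies at 43.6 to 69.8 CPM in naive organoids and at 5.82 to 9.96 CPM in primary tumour lines, and the third Rnf43 peak is highest in primary tumour replicate 2, at 46.0 CPM.

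Among the peaks with deposited counts, those nearest to the windows on the outside were not called either. The closest to an edge, from 108738074 to 108738543 before the Axin2 window, had means of 14.4 CPM in naive organoids and 6.11 CPM in the lines from tumours (log2 fold change -1.22, adjusted p = 0.111, edgeR). The tested peaks next to the other edges had log2 fold changes from -0.51 to 0.76, with adjusted p-values from 0.392 to 0.919. The peak before the Rnf43 window did not pass the filter on low counts.

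For each window, the peaks elsewhere whose levels followed its sum most closely over the 6 libraries were found among 29123 tested peaks with a mean of at least 20 reads. For Axin2 they were a peak on chromosome 2 from 59057753 to 59058443 (Pearson's r 0.987 of log2(CPM + 1)) and another on chromosome 6 from 134869829 to 134871241 (r 0.975). For Ascl2 they lay on chromosome 2 from 49669473 to 49669936 (r 0.983) and chromosome 4 from 59796258 to 59797057 (r 0.977). For Rnf43 they lay on chromosome 17 from 80867723 to 80868341 (r 0.995) and chromosome 7 from 28292766 to 28293841 (r 0.993). These are the highest of many values, and the points share libraries and scaling, so they are given as a description. All 6 of these peaks had naive replicate 3 below the other naive libraries, as the window sums did. They were picked for following those sums, so this likeness is no separate result.

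The precision differed between peaks. The narrowest interval of the log2 fold change was at the strongest Rnf43 peak, -0.46 to 0.25, and the widest at an Ascl2 peak starting at 150141760, -1.62 to 0.92, where libraries held 8 to 25 reads, against 270 to 1332 at the former. What set the width of the intervals was not tested. A level 2-fold lower lay outside the first interval and inside the second.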

How the data were processed

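ATAC-seq was analysed in 3 naive and 3 primary tumour libraries, grouped by sample title. The authors deposited 1 table of raw read counts per peak, with 1 peak set shared by all libraries, per the file itself. Per the submitters' processing notes, the build was mm9 and the tools included MACS2, Bowtie, bedtools, SAMtools and Picard. Versions, roles, any offset correction for Tn5 and the handling of duplicates can change counts and are not given in the sources used.

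All peaks were fitted together in R 4.3.3 with edgeR 4.0.16 (limma 3.58.1). filterByExpr at its defaults kept 36179 of 43020 peaks, with TMM factors from 0.922 to 1.05. The robust quasi-likelihood F test, 2-sided, had group as its sole term, with Benjamini-Hochberg adjustment over all tested peaks and calls at an adjusted p under 0.05. Standard errors and 95% intervals were derived from the F statistic. Window sums and read shares took every peak of a window and were compared by exact 2-sided permutation. The test was also run on simulated counts, drawn independently for each library. That run does not vouch for the calls in these data. Alternatives were the Wald test of DESeq2 1.42.0, its size factors, scaling by total count, 2 other filters, trended (loess, span 0.3) and per-chromosome offsets, a replicate block, each library left out, and other window edges.

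The peaks described by library are, per window, those called, the one with the highest mean CPM and those with the highest and lowest fold change. Others were added after their values were seen: neighbours of called peaks, separated peaks and peaks called under an alternative. The members and lists were chosen with earlier results of these data known. Other Wnt pathway genes were not located, since no annotation in mm9 was used here.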

Additional observations from a re-analysis of the deposited data

How the results depend on the processing

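The direction of each of the 3 called peaks was kept under all 14 alternatives of scaling, filter, test, offsets, block and left-out library. The Axin2 window peak starting at 108767845 was called under all 14 (adjusted p from 1.12e-12 to 0.000371), the Ascl2 window peak starting at 150190667 under 13 (adjusted p from 0.000385 to 0.084) and the Rnf43 window peak starting at 87491997 under 6 (adjusted p from 0.00645 to 0.431). Of the 35 peaks, 29 were called neither in the reported fit nor under any alternative. The count of peaks called higher, 2 in the reported fit, was 1 with the DESeq2 Wald test, 1 with an offset per library and chromosome, 3 each with total-count scaling, with abundance-trended offsets and with at least 20 counts in at least 3 libraries (33 of the 35 tested), and 0 to 4 with a library left out, 0 without naive replicate 2, 1 without naive replicate 3 and 4 without primary tumour replicate 1. The count called lower was 1 under every alternative. The sign of the log2 ratio of window sums was not stable: the Ascl2 window gave -0.11 with each window cut by 10 kb at both ends, and the Rnf43 window gave 0.063 with abundance-trended offsets, where its strongest peak, starting at 87510315, had a log2 fold change of 0.15 in place of -0.10. With a library left out the ratios ran from -0.14 to 0.09 for Axin2, from -0.07 to 0.08 for Ascl2 and from -0.22 to -0.05 for Rnf43. No peak crossed a window edge and all 35 passed the main filter, so counting peaks wholly inside a window and summing filtered peaks alone change nothing by construction. The fit with a replicate block called 1 peak higher and 1 lower, losing the Rnf43 window peak (adjusted p = 0.10). Libraries with the same number deviated from their group means with correlations of -0.24, -0.11 and 0.005, and those with different numbers from -0.20 to 0.26. Deviations within a group of 3 are bound to cancel, so these correlations can neither show nor exclude a pairing. The sample titles do not say that the numbers mark pairs, and the reported fit did not use them so. The causes were not tested. Over the whole table, 5210 peaks were called in the reported fit. The count was 2215 without naive replicate 2, the deepest library, and 3745 without primary tumour replicate 2. It was 5440 without primary tumour replicate 1, the next deepest, and what set these counts was not tested. Sparse Ascl2 window peaks rest on few reads, 3 to 36 per library at the one starting at 150171961.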
